A study of Mus musculus with 9 samples.

Results

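Acan, Vcan, Hapln1, Matn2, Matn3, Matn4 and Comp encode proteoglycans and matrix proteins best known from cartilage, and their RNA was followed here in cells of the mouse tooth germ. They were chosen by symbol in the table of read counts per gene, where they are 7 of 53353 entries, and 6 of the 7 had enough reads to be tested. Acan did not pass the filter on low counts. RNA sequencing was done on dental papilla cells of C57BL/6 mice, in 9 libraries that fall into 3 groups of 3. This mesenchyme of the growing tooth gives rise to the pulp and to the dentin-forming odontoblasts.

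The primary group is labelled as primary dental papilla cells, with no culture time given. The monolayer group was grown on plates in EpiCM medium with 2% fetal bovine serum and 1% growth supplement (EpiCGS), and the sphere group was started from passage 2 cells on ultra-low attachment plates in basal EpiCM with methylcellulose. Culture format, serum and supplement therefore differ together between monolayer and spheres. Culture time is 8 days for both in the source labels, but the growth protocol has 14 days of monolayer culture, against 8 days of sphere culture. A group named DPC P2 in the design text appears as primary cells in the sample titles. No transgene, age or sorting step is given in the labels, and it is not stated whether libraries within a group derive from different mice or dishes. The p-values then set the difference between groups only against the spread of these libraries within groups, which may be technical.

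The libraries held 35957376 to 52047254 counts, and levels are given as CPM, the counts relative to library size scaled by edgeR's TMM method. At this depth 3 counts over a group correspond to 0.0202 CPM in the primary group, 0.0244 CPM in the monolayer group and 0.0208 CPM in the sphere group. Markers of dental mesenchyme, among them Msx1, Msx2, Pax9 and Prrx1, summed to 1427 ± 16.0 CPM (SD, n = 3) in the primary group. The sum was 1579 ± 28.8 CPM in the monolayer group and 1425 ± 44.9 CPM in the sphere group. It hides opposite moves, as Pax9 stood at 195.6, 298.2 and 44.7 CPM and Msx2 at 167.6, 68.4 and 215.2 CPM in this order. Of 9 tested genes of this list, 3 were higher in spheres than in monolayer and 5 lower, beside 40.7% and 37.7% of all tested genes. Of the 10 dental mesenchyme genes, Dlx1 lies wholly inside another entry and gives no level.

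Lecticans such as aggrecan (Acan) and versican (Vcan) are large proteoglycans whose core protein carries chondroitin sulfate chains and binds hyaluronan through its globular end. Link proteins such as Hapln1 lock that binding in place. Matrilins and Comp, a thrombospondin family protein, are multimeric adaptors that connect collagen fibrils, proteoglycans and other filaments. Aggrecan, Hapln1, matrilin-3 and Comp are classical products of cartilage, whereas versican and matrilin-2 are widespread in loose connective tissue and other embryonic matrices.

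Most of the RNA of the 7 genes came from Vcan, Matn2, Matn4 and Hapln1, and these 4 did not share 1 order of the groups. Matn2 was highest in monolayer and lowest in spheres. Hapln1 was highest in spheres, while Matn4 and Vcan were highest in primary cells. Matn3, Comp and Acan stayed at or below 1.20 CPM in every library. The 7 levels summed to 584.9 ± 8.91 CPM in the primary group, 590.7 ± 5.87 CPM in the monolayer group and 336.6 ± 7.78 CPM in the sphere group, with n = 3 for each. Matn2 made up 69.3% of that sum in monolayer and 10.8% in spheres, and Hapln1 made up 5.73% and 37.8%. In bulk RNA, fewer cells of a type and less RNA per cell cannot be told apart.

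**Figure D1:**
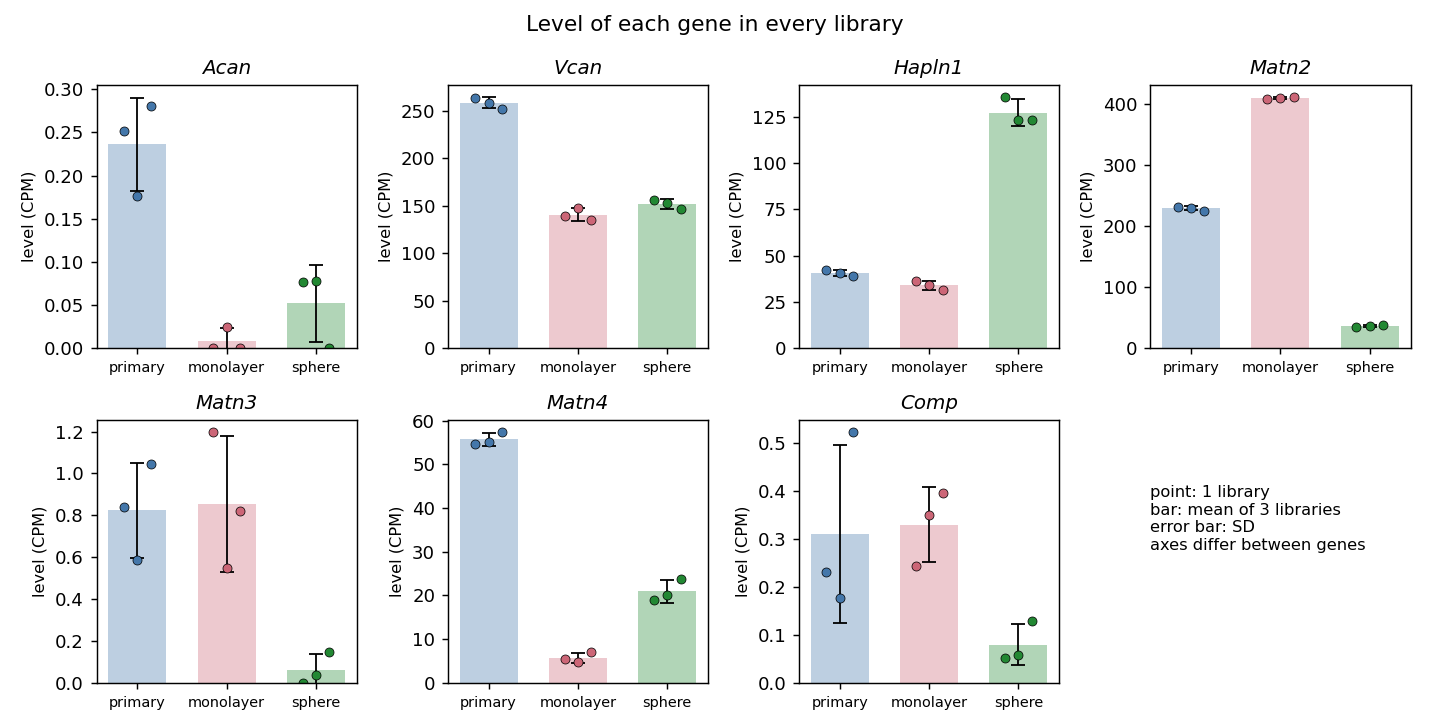
Level in CPM (vertical axis, from 0, with a different range for each gene) of the 7 genes in every library of primary, monolayer and sphere cells. Points are libraries, bars are means of 3 libraries and error bars are SD, cut at 0. Matn2 stands at 409.3 CPM in monolayer and 36.5 CPM in spheres, and Hapln1 at 33.9 CPM and 127.2 CPM.

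Between spheres and monolayer, 3 of the 6 tested genes were higher in spheres (Vcan, Matn4 and Hapln1) and 3 were lower (Comp, Matn2 and Matn3) at an adjusted p under 0.05 (edgeR's quasi-likelihood test with Benjamini-Hochberg adjustment over 15675 genes). In that comparison 78.4% of all tested genes were called, 40.7% higher and 37.7% lower, so the share of called genes among the 6 does not set them apart. Between spheres and primary cells, Hapln1 was higher and the other 5 tested genes were lower, against 79.6% of all tested genes called, 38.9% higher and 40.6% lower. Between monolayer and primary cells, Matn2 was higher, Vcan, Matn4 and Hapln1 were lower, and Comp and Matn3 did not pass the test. Here 71.3% of all tested genes were called, 34.4% higher and 36.9% lower. Since Comp and Matn3 passed the filter only through the groups in which they were higher, these counts do not describe the 7 genes as a whole.

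A test against a change of 2-fold (edgeR's glmTreat) gave fewer calls. Hapln1 and Matn4 passed it as higher and Matn2 and Matn3 as lower in spheres than in monolayer, where 28.0% of all genes passed. Against primary cells, Hapln1 passed as higher and Matn2, Matn3 and Matn4 as lower in spheres, where 27.7% of all genes passed. For monolayer against primary cells only Matn4 of the 6 tested genes passed, as lower, beside 14.0% of all genes in either direction and 7.82% as lower. Library ranges did not overlap for 5 of the 6 genes between spheres and monolayer, where 78.3% of all genes were so separated, for 6 of 6 between spheres and primary cells (81.2% of all genes) and for 4 of 6 between monolayer and primary cells (74.4%). The median log2 change over all genes was 0.04, -0.02 and -0.03 in the 3 comparisons in this order.

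The comparisons with monolayer depend on the scaling. With total counts in place of TMM, the median log2 change of all genes moved by 0.31 between spheres and monolayer and by -0.30 between monolayer and primary cells. The share of called genes that were higher then went from 51.9% to 67.4% and from 48.2% to 25.6%. No call of the 6 genes at an adjusted p under 0.05 changed with that scaling.

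**Figure D2:**
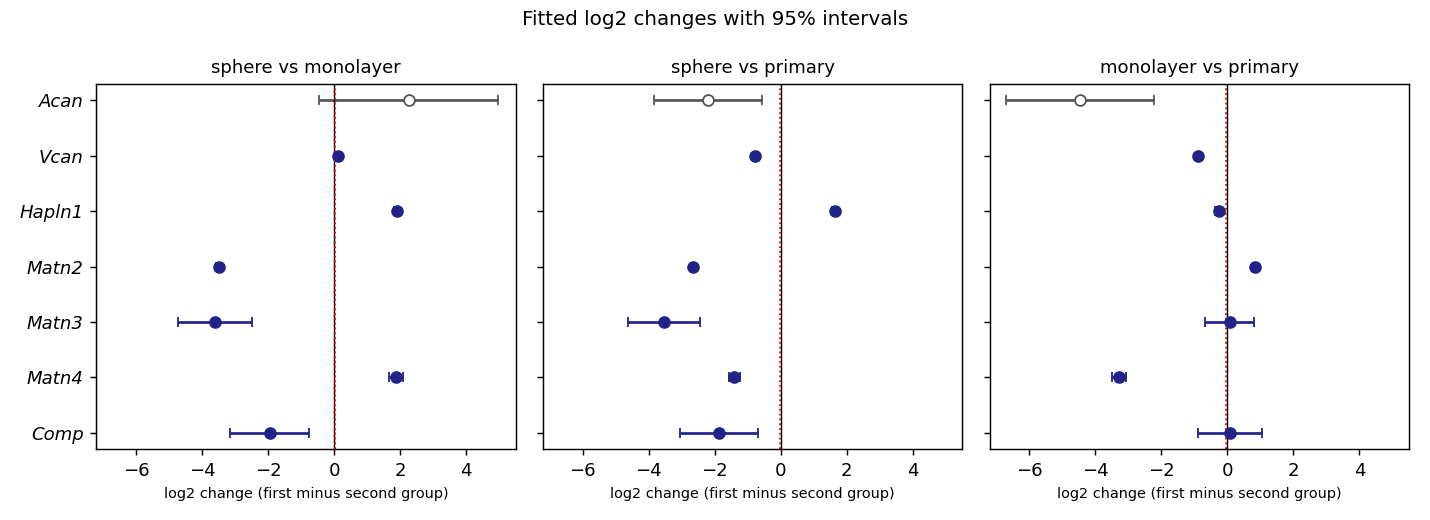
Fitted log2 change (horizontal axis, first minus second group) of the 7 genes in the 3 comparisons, with 95% intervals from edgeR over 9 libraries. Open symbols mark Acan, whose values come from a fit without the filter on low counts, and the dotted red line is the median of all tested genes. Matn2 lies at -3.49 for spheres against monolayer and at 0.84 for monolayer against primary cells.

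Set side by side, gene levels were divided by length. Per kb of annotated exon, Matn2 had the highest level in primary cells (36.6 CPM per kb) and in monolayer (65.4 CPM per kb), followed by Vcan with 17.9 and 9.72 CPM per kb. In spheres Hapln1 led with 21.6 CPM per kb, ahead of Vcan with 10.5, Matn2 with 5.83 and Matn4 with 4.04 CPM per kb. Matn3, Comp and Acan came last in every group, from 0.284 CPM per kb for Matn3 in monolayer down to 0.00111 for Acan. In primary cells and monolayer no 2 neighbours in this order had overlapping library ranges. In spheres, Comp overlapped with Matn3, and Matn3 with Acan.

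The order changed with the length used. The deposited table gives each gene its whole span, introns included, and per kb of span Matn4 led in primary cells with 3.53 CPM per kb, ahead of Vcan with 2.96 and Matn2 with 1.77. In spheres Hapln1 and Vcan, at 1.77 and 1.74 CPM per kb of span, overlapped. Matn2, whose exons make up 4.83% of its 129597-base span, ranked lower per kb of span than per kb of exon in primary cells and spheres, and Matn4, with 32.8% in exons, ranked higher.

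**Figure D3:**
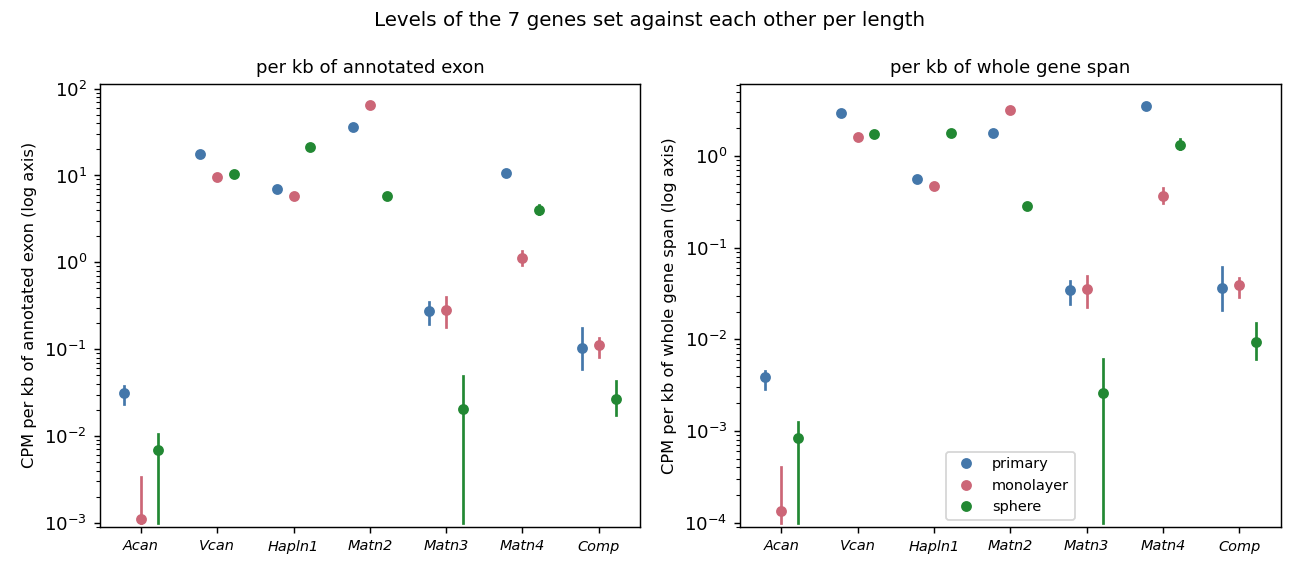
Level per kb on a log axis, by annotated exon length (left) and by whole gene span (right), for the 7 genes in each group. Points are means of 3 libraries and lines run from the lowest to the highest library, ending at the foot of the axis where a library had no count. Matn2 in spheres lies at 5.83 CPM per kb of exon and 0.282 CPM per kb of span.

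Acan, the core protein of aggrecan, lies on chromosome 7 at 79053483 to 79115099 on the plus strand of GRCm38 and overlaps no other entry. It had 12, 9 and 14 counts in the primary libraries, 0, 1 and 0 in monolayer, and 3, 4 and 0 in spheres. The levels were 0.236 ± 0.0539 CPM in the primary group, 0.00832 ± 0.0144 CPM in the monolayer group and 0.0517 ± 0.0448 CPM in the sphere group (SD, n = 3). Every primary library stood above every cultured library, and the cultured groups overlapped. From the summed counts of 35, 1 and 7, the primary level was 29.0-fold that of monolayer (95% exact interval 4.87 to 1180.0) and 4.87-fold that of spheres (2.13 to 13.0). These intervals cover counting error only. Spheres and monolayer differed by a ratio of 5.96 with an interval of 0.765 to 268, which includes no change.

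For Acan an exact permutation test over libraries gave p = 0.1 against primary cells for both cultures, the smallest value that 3 against 3 libraries allow (two-sided). In an edgeR fit without the filter on low counts, its adjusted p was 0.000255 for monolayer against primary cells, 0.0178 for spheres against primary cells and 0.167 for spheres against monolayer. That last comparison passed in 1 of 8 fits that could test the gene, the one without sphere library 3, which has no Acan count.

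Vcan, the lectican of loose and embryonic matrix, lies on chromosome 13 at 89655312 to 89742509 on the minus strand, and 4.19% of its span is shared with other entries. It stood at 263.7, 258.4 and 252.2 CPM in the primary libraries, at 138.7, 148.0 and 135.1 CPM in monolayer and at 156.3, 152.7 and 146.4 CPM in spheres. Primary cells were above both cultures in every library, while monolayer and spheres overlapped. Vcan was 1.84-fold lower in monolayer than in primary cells (log2 change -0.88, SE 0.0370, edgeR adjusted p = 3.26e-17). It was 1.70-fold lower in spheres than in primary cells (log2 change -0.77, SE 0.0367, edgeR adjusted p = 2.23e-16).

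The difference of Vcan between the cultures was small, 0.11 on the log2 scale (SE 0.0372, edgeR adjusted p = 0.0094). It missed the threshold with only these 2 groups in the fit (adjusted p = 0.0829), without monolayer library 1 (0.0502) and without monolayer library 3 (0.0629). With total-count scaling it was 0.41.

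Promoter windows are shown for the abundant lectican, the scarce lectican and Matn4, so that genes of very different level can be set beside each other. Windows were found for 5 of the 7 genes, not for Comp and Matn2. The sequences are from RefSeq on GRCm38.p6, the 250 bases before the RefSeq start, 5′ to 3′ on the gene's strand. For Acan that start, 79053226, lies upstream of the counted span, which begins at 79053483. Its motif distances are from the RefSeq start, not from the counted span. They lie at chr13:89742513-89742762 (minus strand, Vcan), chr7:79052976-79053225 (plus strand, Acan) and chr2:164405161-164405410 (minus strand, the outer of 2 Matn4 starts). Capitals mark matches on either strand to the motifs listed after them.
Vcan: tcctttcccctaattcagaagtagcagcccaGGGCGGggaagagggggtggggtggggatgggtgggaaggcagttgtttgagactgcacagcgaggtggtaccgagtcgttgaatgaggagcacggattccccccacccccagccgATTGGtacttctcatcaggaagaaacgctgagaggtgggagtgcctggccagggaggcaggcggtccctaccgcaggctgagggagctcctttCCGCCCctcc
Acan: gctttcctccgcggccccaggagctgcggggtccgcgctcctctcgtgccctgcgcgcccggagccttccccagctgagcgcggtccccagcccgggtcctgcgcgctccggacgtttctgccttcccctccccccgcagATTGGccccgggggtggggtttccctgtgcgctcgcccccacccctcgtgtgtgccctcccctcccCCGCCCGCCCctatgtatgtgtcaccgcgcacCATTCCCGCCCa
Matn4: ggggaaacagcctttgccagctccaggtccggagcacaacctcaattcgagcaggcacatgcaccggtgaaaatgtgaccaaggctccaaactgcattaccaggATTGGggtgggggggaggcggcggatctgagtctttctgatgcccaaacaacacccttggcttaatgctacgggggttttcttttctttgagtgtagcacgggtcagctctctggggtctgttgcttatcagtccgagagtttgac

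The motifs searched on both strands were the TATA box TATAAA, the GC box GGGCGG, the CAAT box CCAAT, a SOX core AACAAT, a RUNX core AACCAC, the AP-1 site TGACTCA and a TEAD core CATTCC. Among 32851 mouse windows of this length they occurred in 12.4%, 32.7%, 33.8%, 9.42%, 10.8%, 4.46% and 12.6%. The Vcan window holds a GC box 219 and another 10 bases before the start and a CAAT box at 103. The Acan window holds GC boxes at 44, 40 and 7, of which the first 2 overlap, a TEAD core at 12 that shares a base with the GC box at 7, and a CAAT box at 110. The Matn4 window holds a CAAT box at 146. Of the windows found, that of Acan is richest in G and C, with 74.4% and 26 CpG, against 62.4% and 10 CpG for Vcan. The Matn4 window shown has 54.4% and 8 CpG, and the medians over all windows are 52.4% and 6. The window of the inner Matn4 start, not printed, has 62.8% and 14 CpG, a GC box at 6 and a TEAD core at 29. Matn3 has 65.2% and 14 CpG and Hapln1 54.4% and 2 CpG. A relation of these values to the level of the genes was not tested. These matches describe the letters of the windows, and binding was not measured.

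Hapln1, which stabilizes the bond between lecticans and hyaluronan, was the gene of the 7 with its highest level in spheres. It lies on chromosome 13 at 89539796 to 89611652 on the plus strand, and 1.76% of its span is shared with another entry that has no counts. It stood at 42.4, 40.7 and 39.2 CPM in the primary libraries, at 36.0, 33.9 and 31.7 CPM in monolayer and at 135.4, 123.1 and 123.1 CPM in spheres. The 3 groups did not overlap. Hapln1 was 3.76-fold higher in spheres than in monolayer (log2 change 1.91, SE 0.0491, edgeR adjusted p = 1.67e-22) and 3.12-fold higher than in primary cells (1.64, SE 0.0475, adjusted p = 2.83e-21). In monolayer it was lower than in primary cells by a smaller step (log2 change -0.27, SE 0.0512, edgeR adjusted p = 5.35e-05).

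Hapln1 and Vcan are neighbours, 43659 bases apart with no other entry between them, yet their levels followed different orders. The ratio of Hapln1 to Vcan in CPM was 0.161, 0.158 and 0.155 in the primary libraries, 0.260, 0.229 and 0.234 in monolayer and 0.866, 0.806 and 0.840 in spheres. The ranges of the 3 groups did not overlap. The exact permutation p was 0.1 for each pair of groups, the smallest that this design allows.

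The other 3 lectican genes also lie beside a link protein gene with no entry between. Hapln3, on the opposite strand with 2 bases between its end and that of Acan, stood at 2.23 ± 0.385 CPM in the primary group, 1.38 ± 0.353 CPM in the monolayer group and 1.90 ± 0.322 CPM in the sphere group (n = 3), above Acan in each group. Bcan (brevican) was at 0.634 ± 0.319 CPM in the primary group, 4.41 ± 0.299 CPM in the monolayer group and 4.56 ± 0.354 CPM in the sphere group, while its neighbour Hapln2 had 6, 17 and 4 summed counts. Bcan was higher in both cultures than in the primary group, with log2 changes of 2.78 in the monolayer group and 2.83 in the sphere group (edgeR adjusted p = 3.87e-12 and 1.15e-12). Hapln4, next to Ncan (neurocan), was higher in spheres than in monolayer (log2 change 1.16, SE 0.138, edgeR adjusted p = 2.82e-08), and Ncan itself had 2, 1 and 23 summed counts in primary cells, monolayer and spheres. Matn1, the remaining matrilin, had no count in either culture.

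The matrilins moved in different directions. Matn2, a matrilin found in many connective tissues, lies on chromosome 15 at 34306677 to 34436273 on the plus strand, with 6.81% of its span shared with an entry that has no counts. Its levels were 231.7, 229.9 and 225.3 CPM in the primary libraries, 408.1, 409.4 and 410.5 CPM in monolayer and 34.9, 36.3 and 38.3 CPM in spheres. The 3 groups were far apart. Matn2 was 11.2-fold lower in spheres than in monolayer (log2 change -3.49, SE 0.0375, edgeR adjusted p = 6.42e-31) and 6.27-fold lower than in primary cells (-2.65, SE 0.0368, adjusted p = 2.39e-28). It was 1.79-fold higher in monolayer than in primary cells (log2 change 0.84, SE 0.0328, edgeR adjusted p = 6.69e-18).

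Matn4, another broadly expressed matrilin, lies on chromosome 2 at 164389393 to 164405160 on the minus strand, and 12.8% of its span overlaps Rbpjl, which has 70 counts in all. Its levels were 54.7, 55.1 and 57.4 CPM in the primary libraries, 5.45, 4.84 and 6.98 CPM in monolayer and 18.9, 20.1 and 23.9 CPM in spheres. Every primary library was above every sphere library, and every sphere library above every monolayer library. Matn4 was 9.68-fold lower in monolayer than in primary cells (log2 change -3.28, SE 0.0970, edgeR adjusted p = 3.56e-16). In spheres it was 2.66-fold lower than in primary cells (log2 change -1.41, SE 0.0798, edgeR adjusted p = 5.45e-12) and 3.63-fold higher than in monolayer (1.87, SE 0.104, adjusted p = 3.63e-12).

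Matn2 and Matn4 therefore stood in opposite orders in the cultures. The ratio of Matn2 to Matn4 in CPM was 4.11 ± 0.163 in the primary group, 72.7 ± 13.0 in the monolayer group and 1.76 ± 0.132 in the sphere group (n = 3). The library ratios ran from 3.93 to 4.24, from 58.8 to 84.5 and from 1.61 to 1.85, with no overlap between groups (exact permutation p = 0.1 for each pair, the smallest possible).

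Matn3, a matrilin known mainly from cartilage, lies on chromosome 12 at 8947929 to 8972028 on the plus strand and overlaps no other entry. It was a low gene, with 40, 30 and 52 counts in the primary libraries, 54, 22 and 31 in monolayer and 0, 2 and 8 in spheres. The sphere libraries were all below the others, and primary cells and monolayer overlapped. The levels were 0.824 ± 0.228 CPM in the primary group, 0.855 ± 0.325 CPM in the monolayer group and 0.0620 ± 0.0762 CPM in the sphere group (n = 3). Matn3 was lower in spheres than in monolayer (log2 change -3.60, SE 0.540, edgeR adjusted p = 1.2e-06) and than in primary cells (-3.54, SE 0.535, adjusted p = 1.39e-06). Without sphere library 3, which holds 8 of the 10 sphere counts, these changes were -5.12 and -5.05. Matn3 passed the filter on low counts only through primary cells and monolayer, so the tests could hardly have placed spheres higher. Its log2 change from primary cells to monolayer was 0.07 with a 95% interval of -0.69 to 0.82 (edgeR adjusted p = 0.883).

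Comp, a pentameric thrombospondin family protein of cartilage and tendon, lies on chromosome 8 at 70373558 to 70382066 on the plus strand and overlaps no other entry. It had 11, 9 and 26 counts in the primary libraries, 11, 14 and 15 in monolayer and 2, 3 and 7 in spheres. All sphere libraries were lowest, and primary cells and monolayer overlapped. The levels were 0.310 ± 0.186 CPM in the primary group, 0.330 ± 0.0782 CPM in the monolayer group and 0.0795 ± 0.0427 CPM in the sphere group (n = 3). Comp passed the filter on low counts only through primary cells and monolayer, so the tests could hardly have placed spheres higher. Comp was lower in spheres than in monolayer (log2 change -1.95, SE 0.583, edgeR adjusted p = 0.00378), and did not pass the test against 2-fold (adjusted p = 0.0621). Against primary cells the change was -1.88 (SE 0.573, edgeR adjusted p = 0.00446). This call rested on primary library 3, without which the change was -1.28 and the adjusted p 0.0805. Its log2 change from primary cells to monolayer was 0.08 with a 95% interval of -0.88 to 1.03 (edgeR adjusted p = 0.892), and without primary library 3 it was 0.68 (adjusted p = 0.288).

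The relatives of Comp followed several patterns. Of 3 tested thrombospondins, Thbs1 and Thbs2, secreted regulators of adhesion and vessel growth, were lower in spheres than in monolayer and Thbs4 was higher. Thbs1 stood at 2449 ± 20.4 CPM in the primary group, 5014 ± 25.6 CPM in the monolayer group and 18.3 ± 2.23 CPM in the sphere group, which is 275-fold lower than in monolayer. Thbs2 stood at 667.4 ± 4.71, 2346 ± 18.9 and 12.95 ± 1.56 CPM in the same order, and Thbs4 at 13.3 ± 0.541, 0.293 ± 0.128 and 1.98 ± 0.557 CPM. Against primary cells all 3 were lower in spheres, and in monolayer Thbs1 and Thbs2 were higher and Thbs4 lower than in primary cells. For scale, 37.7% of all tested genes were lower in spheres than in monolayer and 40.6% lower than in primary cells. Thbs3 lies wholly inside another entry and had no counts, so it gives no level.

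Genes for the chondroitin chains that lecticans carry were mostly higher in spheres. Of 14 genes of linker and chondroitin chain synthesis, 11 were higher in spheres and 3 lower, relative to monolayer, and 13 were higher and 1 lower than in primary cells. Their median log2 changes were 0.52 and 0.85, beside 0.04 and -0.02 for all genes. Among all tested genes 40.7% were higher in spheres than in monolayer and 37.7% lower, then 38.9% and 40.6% against primary cells. Csgalnact1, which starts the chondroitin chain, stood at 3.64 ± 0.860 CPM in the primary group, 5.28 ± 0.0790 CPM in the monolayer group and 89.7 ± 0.794 CPM in the sphere group, 17.0-fold above monolayer. Xylt1, which attaches the first sugar to the core protein, was 16.2-fold higher in spheres than in monolayer, at 31.5 ± 1.04 against 1.95 ± 0.671 CPM. The more abundant Xylt2 was only 1.28-fold higher, at 56.5 ± 2.86 against 44.2 ± 2.64 CPM. Csgalnact2 went the other way, with 41.1 ± 1.55 CPM in monolayer and 22.3 ± 0.387 CPM in spheres.

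Fam20b, the xylose kinase of the linker, and Chpf2, a chain polymerization factor with 47.8% of its span shared with other entries, were the other 2 lower genes against monolayer. These differences were small, 1.11-fold for Fam20b and 1.06-fold for Chpf2. In monolayer 10 of the 14 were higher than in primary cells and 2 lower, beside 34.4% and 36.9% of all tested genes. With total-count scaling these counts became 7 and 4. With that scaling 13 were higher in spheres and 1 lower, relative to monolayer, so that not all 3 lower genes stayed lower. Chsy1, a chain polymerase, has 98.9% of its span shared with other entries, and its reads may be counted only in part.

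Sulfation genes were divided. Of 15 tested genes for sulfation and sulfate supply, 8 were higher in spheres and 5 lower, relative to monolayer, and 8 were higher and 7 lower than in primary cells, with median log2 changes of 0.17 and 0.40. The shares of all tested genes were 40.7% higher and 37.7% lower, then 38.9% higher and 40.6% lower. In monolayer 10 of the 15 were higher and 2 lower than in primary cells (34.4% and 36.9% of all tested genes), or 7 and 4 with total-count scaling. Chst11, which sulfates chondroitin at the 4 position, stood at 71.4 ± 0.790 CPM in the primary group, 178.4 ± 3.54 CPM in the monolayer group and 523.4 ± 1.19 CPM in the sphere group. Chst13, another 4-O-sulfotransferase, stood at 0.796 ± 0.0778, 6.46 ± 0.406 and 35.3 ± 2.21 CPM. Ust, the uronyl 2-O-sulfotransferase, was 3.77-fold higher in spheres than in monolayer. Chst12, a further 4-O-sulfotransferase, was 4.37-fold lower, and Dse, an epimerase that turns chondroitin into dermatan, was 5.45-fold lower, at 24.3 ± 1.55 CPM in spheres. Its relative Dsel went the other way, with 115.2 ± 3.12 CPM in spheres against 79.55 ± 5.53 CPM in monolayer (edgeR adjusted p = 1.72e-11).

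Hyaluronan, the chain to which lecticans and link proteins bind, is made by Has enzymes from a sugar supplied by Ugdh. Of 13 tested genes of its synthesis, binding and turnover, 7 were higher in spheres and 4 lower, relative to monolayer, with a median log2 change of 0.18. Against primary cells 9 were higher and 4 lower in spheres. From primary cells to monolayer 8 were higher and 4 lower, or 6 and 5 with total-count scaling. Of all tested genes 40.7%, 38.9% and 34.4% were higher and 37.7%, 40.6% and 36.9% lower in the 3 comparisons, in this order. Has2, the main synthase of mesenchyme, stood at 2.83 ± 0.133 CPM in the primary group, 9.18 ± 0.932 CPM in the monolayer group and 0.0872 ± 0.0376 CPM in the sphere group. Has1 stood at 1.73 ± 0.244, 5.49 ± 0.838 and 2.83 ± 0.193 CPM and Has3 at 1.15 ± 0.0680, 2.23 ± 0.134 and 2.77 ± 0.137 CPM in the same order, and both were higher in spheres than in primary cells. Against monolayer, Has1 was lower in spheres (log2 change -0.95, edgeR adjusted p = 1.03e-06) and Has3 did not pass (adjusted p = 0.0632). Cemip, a gene of hyaluronan turnover, stood at 196.1 ± 0.638, 55.1 ± 0.839 and 141.7 ± 6.67 CPM in the same order. Cd44, a hyaluronan receptor, was 2.01-fold higher in spheres than in monolayer, at 334.2 ± 13.2 against 166.0 ± 9.40 CPM. Ugdh was 3.56-fold higher, with 37.5% of its span shared with other entries.

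ADAMTS proteases that cleave lecticans fell in spheres with 1 exception. Of 6 tested, 5 were lower and 1 higher in spheres, both against monolayer and against primary cells, comparisons that share the sphere libraries. Their median log2 changes were -1.54 and -2.50. Among all tested genes 37.7% were lower in spheres than in monolayer and 40.6% lower than in primary cells. Adamts1 stood at 399.7 ± 4.08 CPM in the primary group, 530.1 ± 7.44 CPM in the monolayer group and 27.4 ± 1.91 CPM in the sphere group, 19.3-fold below monolayer. Adamts4 stood at 36.3 ± 1.30, 63.5 ± 3.98 and 2.35 ± 0.219 CPM. Adamts15 was the exception, at 0.761 ± 0.0863 CPM in the primary group, 2.24 ± 0.0791 CPM in the monolayer group and 19.0 ± 0.903 CPM in the sphere group. Relative to primary cells, 4 of the 6 were higher in monolayer (34.4% of all tested genes), Adamts20 was lower and Adamts9 did not pass the test.

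Matrix proteins that bind matrilins or Comp, or that bridge lecticans, were lower in spheres as a group. Of 13 tested, 10 were lower and 2 higher than in monolayer, with a median log2 change of -3.40. Against primary cells 12 were lower and 1 higher, with a median of -3.61. The shares of all tested genes were 37.7% lower and 40.7% higher, then 40.6% lower and 38.9% higher. Fbln2 (fibulin-2, a versican ligand) stood at 987.8 ± 20.3 CPM in the primary group, 2127 ± 79.3 CPM in the monolayer group and 31.3 ± 0.663 CPM in the sphere group. Col6a3, a chain of the collagen VI filaments that matrilins bind, stood at 815.9 ± 4.49, 679.7 ± 6.14 and 18.8 ± 1.72 CPM. The higher genes against monolayer were Tnr and Tnc, the tenascins, of which Tnc stood at 112.2 ± 1.69 CPM in the primary group, 5.35 ± 0.322 CPM in the monolayer group and 19.3 ± 0.803 CPM in the sphere group. Tnc shares 77% of its span with other entries. Between monolayer and primary cells 3 of the 13 were higher and 8 lower, beside 34.4% and 36.9% of all tested genes.

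**Figure D4:**
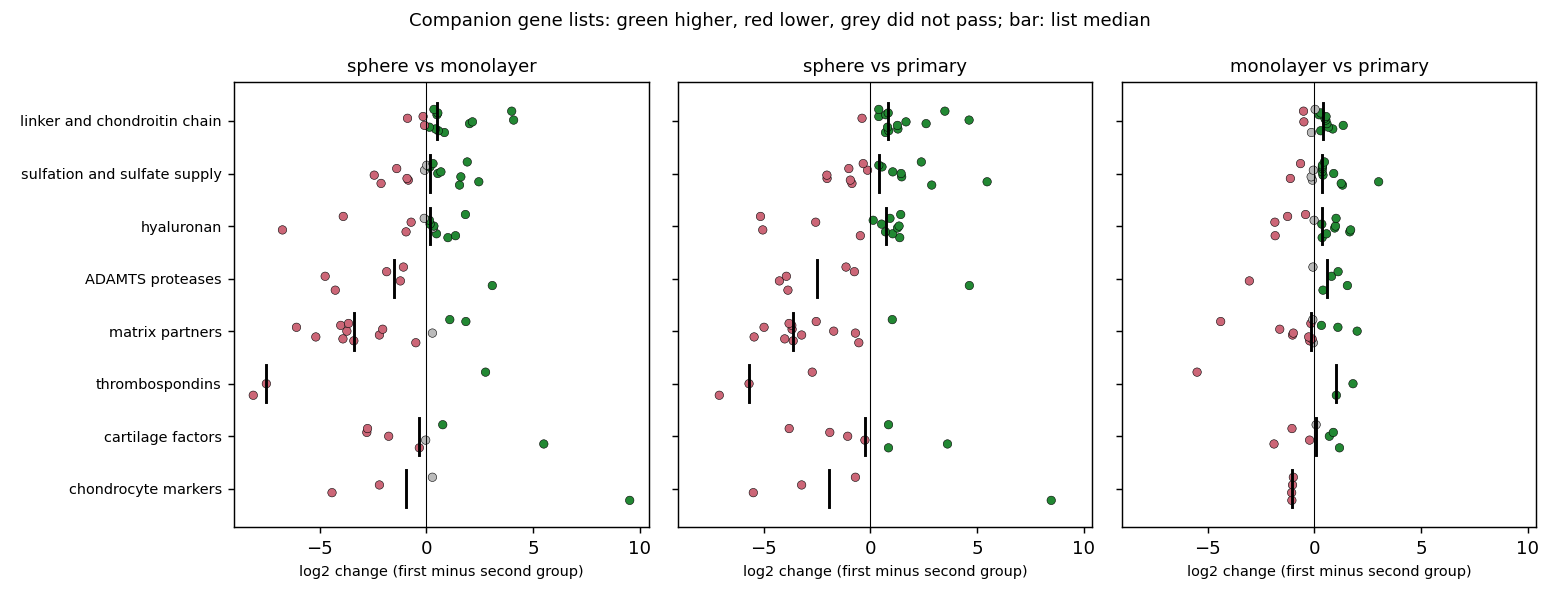
Fitted log2 change (horizontal axis, first minus second group, shared by the 3 panels) of each tested gene in 8 companion lists, with the list median as a bar. Green points were higher, red points lower and grey points did not pass the edgeR test. The matrix partners have a median of -3.40 for spheres against monolayer, and the genes of chondroitin chain synthesis one of 0.52.

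Transcription factors that drive cartilage genes did not move together. Of 7 tested, 2 were higher in spheres and 4 lower, relative to monolayer, 3 were higher and 4 lower than in primary cells, and 3 were higher and 3 lower between monolayer and primary cells. With total-count scaling 3 were higher in spheres and 3 lower, relative to monolayer. The shares of all tested genes with TMM were 40.7%, 38.9% and 34.4% higher and 37.7%, 40.6% and 36.9% lower in the 3 comparisons. Sox9, the master regulator of chondrocytes, stood at 31.6 ± 0.282 CPM in the primary group, 33.6 ± 1.68 CPM in the monolayer group and 57.05 ± 1.34 CPM in the sphere group, 1.70-fold above monolayer. Its partner Sox5 was 6.93-fold lower in spheres than in monolayer, at 5.32 ± 0.390 against 36.9 ± 1.22 CPM. Mef2c, a factor of chondrocyte maturation and of other lineages, was 45.3-fold higher in spheres than in monolayer, at 222.1 ± 6.95 against 4.90 ± 0.270 CPM.

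Defining genes of chondrocytes were low in all groups, apart from Col11a2 in spheres. Of 12 chondrocyte markers found in the table, 8 were too low to test, and 3 had no count in the primary group, 6 in the monolayer group and 7 in the sphere group. Col10a1 and Chad lie wholly inside other entries and give no level. Col2a1, the collagen of cartilage fibrils, stood at 1.98 CPM in the primary group, 0.950 CPM in the monolayer group and 0.0428 CPM in the sphere group. The list summed to 11.8 to 12.9 CPM in the primary group, 5.85 to 6.18 CPM in the monolayer group and 983.3 to 1049 CPM in the sphere group, of which Col11a2 gave 1009 ± 33.4 CPM. Of the 4 tested markers Col11a2 was higher in spheres than in monolayer, Col2a1 and Col9a2 were lower and Col9a3 did not pass. Relative to primary cells, spheres had lower levels of all but Col11a2, and all 4 were lower in monolayer than in primary cells. In these comparisons 37.7%, 40.6% and 36.9% of all tested genes were lower, in this order.

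Markers of other cell types differed between the groups as well, and their part in the results on the 7 genes was not tested. Odontoblast markers summed to 52.0 to 55.0 CPM in the primary group, 7.67 to 8.26 CPM in the monolayer group and 21160 to 21890 CPM in the sphere group. Dmp1 gave 18360 ± 351 CPM of the sphere sum. In both comparisons, which share the sphere libraries, 6 of 6 were higher in spheres. Dspp, at 0 CPM in the other groups, and Mepe, at most 0.0751 CPM there, passed the low-count filter only through spheres, so their direction was fixed. Of all tested genes 40.7% were higher in spheres than in monolayer and 37.7% lower, then 38.9% and 40.6% against primary cells. Tendon and ligament markers, a tissue where Comp is abundant, summed to 173.0 to 175.5, 512.0 to 524.1 and 10.5 to 11.6 CPM in primary cells, monolayer and spheres, with Kera at 0 and Scx wholly inside another entry. Fmod alone gave 146.9 ± 2.01 CPM of the primary sum and 487.0 ± 9.33 CPM of the monolayer sum. Of 4 tested tendon and ligament markers, 3 were lower and 1 higher in spheres than in monolayer. Epithelial markers had means of 239.2, 11.7 and 585.6 CPM, and 8 of 9 were higher in spheres and 1 lower, relative to monolayer. Ambn, an enamel matrix gene, gave 523.7 ± 6.22 CPM of the sphere sum. Relative to primary cells 2 of the 9 were higher in spheres, Ambn and Epcam, and 7 were lower, among them Krt14 at 7.25 ± 0.364 against 112.7 ± 2.43 CPM. Smooth muscle and pericyte markers had means of 2278, 1333 and 522.8 CPM. Cspg4, the 1 marker of 6 that was higher in spheres than in monolayer, gave 521.2 ± 21.8 CPM of the sphere sum. The other 5 were lower, among them Acta2 at 0.863 ± 0.278 CPM in spheres against 1159 ± 23.2 CPM in monolayer.

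Macrophage, endothelial and glial markers were low throughout. Their sums had means of 24.2, 14.8 and 41.4 CPM for macrophages, 14.6, 28.7 and 5.17 CPM for endothelium and 16.7, 27.7 and 3.48 CPM for glia in primary cells, monolayer and spheres. Single genes gave most of some sums. In monolayer Kdr gave 27.5 ± 0.607 CPM of the endothelial sum and Mbp 26.6 ± 1.31 CPM of the glial sum. In spheres Lyz2 gave 27.4 ± 0.611 CPM of the macrophage sum. In spheres against monolayer, 4 macrophage markers of 6 were higher and 2 lower, 2 endothelial markers of 5 were higher and 2 lower, and 1 glial marker of 2 was higher and 1 lower. Beside these counts, 40.7% of all tested genes were higher in spheres than in monolayer and 37.7% lower. The endothelial genes Cdh5 and Tie1 had no count in spheres. Of 9 tested dental mesenchyme genes, 3 were higher in spheres and 5 lower, relative to monolayer, or 4 and 3 with total-count scaling.

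Among 9485 tested genes with at least 10 CPM in a group, those with the pattern most like each of the 6 tested genes were named by the smallest root mean square difference of centred log2 CPM over the 9 libraries. Closest to Vcan were Cep131, Il1rap and Nap1l1, with differences of 0.0501, 0.0538 and 0.0546. Closest to Matn2 were Olfml2b, Spats2l and Arvcf, at 0.0593, 0.0722 and 0.0736. Closest to Hapln1 was Galnt7 at 0.0634. Olfml2b, for example, stood at 115.6 ± 4.52 CPM in the primary group, 194.2 ± 1.04 CPM in the monolayer group and 17.25 ± 0.828 CPM in the sphere group (n = 3), an order shared with Matn2.

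Matn4 had no neighbour as close. Egr1, an immediate early transcription factor, lay at 0.176, with 408.9 ± 2.08 CPM in the primary group, 41.4 ± 0.476 CPM in the monolayer group and 170.2 ± 5.23 CPM in the sphere group. Acot2 and Acot1, near-identical thioesterase copies whose reads the counting could split, lay at 0.234 and 0.268. For Comp (Gatsl3, Map3k14 and Tspan9, 0.377 to 0.401) and Matn3 (Itm2a, Hspb1 and Vstm5, 0.516 to 0.547) the differences were larger, and these are the genes of low count. With a prior count of 0.5 in place of 2, 1 of 3 names was shared for Comp and 0 of 3 for Matn3, and 3 of 3 for each of Vcan, Matn2 and Matn4. Acan was not matched because it was not tested.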

How the data were processed

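RNA sequencing libraries of primary, monolayer and sphere dental papilla cells (3 each, grouped by title) were compared. The authors deposited raw whole-number counts per gene. Tools named in the submitters' processing notes are fastp 0.20.0, HISAT2 2.1.0 and featureCounts 1.6.0, with build GRCm38. Neither annotation release nor strand setting was given in the sources used here. For 53245 of 53245 single-interval entries the stated length equals the whole span, so introns were included, and 12231 of 12231 entries wholly inside another have at most 3 counts. Reads in a stretch shared between entries thus appear to be left uncounted, so an overlapped gene may lose reads. Without a known strand setting, antisense reads elsewhere in a gene cannot be told apart from its own. Gene spans of the 7 genes equal those of GENCODE M21, which gave exon lengths.

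From the counts, edgeR 4.0.16 in R 4.3.3 (TMM, filterByExpr with a minimum count of 10, quasi-likelihood test with robust estimation, Benjamini-Hochberg adjustment, threshold 0.05, two-sided) was fitted as group means over all 9 libraries, leaving 15675 genes with a biological coefficient of variation of 4.03%. glmTreat tested against 2-fold. CPM used TMM-scaled library sizes. The procedure was tested on simulated data. Ratios of summed counts have 95% exact binomial intervals, which like all floors of 3 counts cover counting error only. Alternatives were DESeq2 1.42.0, total-count scaling, no filter, a minimum count of 100, fits of 2 groups only, a replicate block and leaving out each library.

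The genes, the 17 companion and marker lists and the tests were chosen with earlier results of these data known. Of 159 genes looked up, 156 were found. Genes named from a list are, per comparison, the 2 called genes with the largest change in each direction among those reaching 10 CPM, and the exceptions to a count. Has1, Has2, Has3, Col2a1, Chsy1, Xylt2, Dsel, Mepe, Rbpjl, the neighbours of the lectican genes and list genes with no count were named outside this rule, after their values were seen. Same-numbered libraries of different groups did not deviate together (correlations of -0.0098 to 0.0256 over 9 pairs), so the numbers were not taken to pair them. Libraries of a group differed by more than counting noise, so none was treated as a duplicate. The 3 genes of most similar pattern were sought for each tested gene, and some of those for Hapln1 are not reported here.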

Additional observations from a re-analysis of the deposited data

How the results depend on the processing

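Over 15 other settings, 262 log2 changes of the 6 tested genes were recomputed, of which 251 kept their direction and their side of the threshold, 4 lost the call and 7 turned sign. All that turned sign were uncalled changes between monolayer and primary cells. Comp went to -0.22 with total-count scaling, -0.07 without monolayer library 3, -0.09 without primary library 1 and -0.21 without primary library 2, within a range of -0.21 to 0.68 over the libraries left out. Matn3 went to -0.23 with total-count scaling, -0.27 without monolayer library 1 and -0.13 without primary library 2, within a range of -0.27 to 0.30. The 4 lost calls are those of Vcan between the cultures and of Comp against primary cells, given with the genes, and the cause was not tested.

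A minimum count of 100 removed Comp and Matn3, leaving 1 gene lower in spheres than in monolayer, also in the test against 2-fold, and 3 lower than in primary cells. Fits of 2 groups only removed Comp from both sphere comparisons, leaving 2 genes lower in spheres than in monolayer and 4 lower than in primary cells. Changes of genes so removed are not among the 262 recomputed. Without the filter Acan entered, and 2 genes passed as over 2-fold lower in monolayer than in primary cells. That count was also 2 with total-count scaling, where Vcan joined Matn4, and 1 to 2 when each library was left out. With total-count scaling 3042 genes were called higher and 8856 lower in monolayer than in primary cells, against 5389 and 5787 with TMM.

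With the replicate number as a block, no call of the 6 tested genes at an adjusted p under 0.05 changed, with 3 higher in spheres and 3 lower, relative to monolayer, and 6368 genes were called higher and 5897 lower there. Comp then also passed the test against 2-fold in that comparison. The numbers were not shown to pair the libraries.

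Depth limits Acan, Comp and Matn3, whose sphere levels rest on 7, 12 and 10 counts over 3 libraries.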
